A study of Canis lupus familiaris with 7 samples.

Results

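Cytotoxic T lymphocytes and natural killer (NK) cells are the killer cells of the immune system, and 10 genes that mark them or the T cells that help them were followed here in 7 canine osteosarcomas (OS), a tumour of bone. The genes listed were GZMA, GZMB, GZMK, PRF1, NKG7, CD3D, CD3E, CD2, CD8A and CD4. Of these, 6 genes had a probe under their own symbol on the array, with 7 of its 43603 probes between them: GZMA, PRF1, NKG7, CD3E and CD4 with 1 probe each, and CD8A with 2. GZMA and CD3D were put on the list because their intensity was higher in the DLG2-deleted tumours in earlier results of these same arrays, so their differences are given as a description and were not tested. The other genes were listed by function. Probes for CD3D and CD2 were found under locus names through their RefSeq gene numbers, and a probe for GZMK through its description in the files. These 3 probes are given beside the 7 and are named each time as found under another name. GZMB was not analysed here.

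There were 4 DLG2-deleted and 3 DLG2 wild-type tumours, each a primary OS of a dog that the labels tell apart from the others, measured on 1 array apiece. Values are given below in the order of the tumour numbers, which only name the tumours. The dogs of deleted tumours 1 to 4 were a German Shepherd/Collie mix, a Rottweiler mix, a Greyhound and a Great Pyrenees, aged 8, 9, 6 and 7 years and labelled MC, FS, MC and FS for gender. Wild-type tumours 1 to 3 came from a Boxer, a Labrador Retriever mix and a Bull Mastiff aged 12, 10 and 8 years and labelled FS, FS and MC. Per the labels the groups differ in DLG2, which codes for a scaffold protein, and no treatment is given for either. The single probe for DLG2 did not separate the groups, with log2 intensities of 10.37, 11.44, 10.51 and 10.84 in the deleted tumours and 10.91, 12.03 and 11.75 in the wild-type tumours.

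A T cell recognises its target through the T cell receptor, whose signal is carried into the cell by the CD3 chains, with CD8 or CD4 as co-receptor. A cytotoxic T cell or NK cell that is triggered releases granules in which perforin opens the target membrane and granzymes, which are serine proteases, start cell death. In solid tumours such cells are part of the infiltrate between the tumour cells. In RNA of whole tumour tissue, fewer cells of a type and less RNA per cell cannot be told apart.

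Between 30280 and 34538 probes per array were well above background by the scanner software's mark, 0 spots were saturated, and replicate spots of a probe within an array differed with a median SD between 0.058 and 0.095 on the log2 scale. Wild-type tumours 1 and 2 were more alike than any other pair, with a Pearson r of 0.987 over probes against 0.935 to 0.966 for the other 20 pairs. The arrays lay on 5 slides, of which 1 was shared by deleted tumours 2 and 3 with wild-type tumour 2. Feature extraction, the step that turns the scan into spot values, was divided into 2 sessions. Deleted tumours 2, 3 and 4 and the second wild-type tumour fell in the first. The sessions were inferred here from gaps between the clock times of extraction in the file headers, without the dates. Deleted tumour 4 held the fat cell transcripts ADIPOQ at 13.37 and PLIN1 at 11.17, against at most 7.85 and 7.77 in any other tumour. Its part in the results was not tested, and results are also given without it.

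The oligonucleotides that carry the results are shown first, since on this array each gene is seen through 60 bases. The probes of GZMA and GZMK (the latter found under another name) can be aligned without gaps over 46 bases, in which capitals mark the 28 bases that are identical. The pair is shown because granzymes are a family of related genes and both probes separated the groups.
GZMA: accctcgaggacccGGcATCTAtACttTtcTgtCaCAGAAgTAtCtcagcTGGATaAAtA
GZMK: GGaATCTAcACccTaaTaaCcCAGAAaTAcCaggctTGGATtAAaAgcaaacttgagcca

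The GZMA probe lies at chr2:45346787-45346846 and the GZMK probe at chr4:63762945-63763004 on the canFam2 build, the build of the array design. Neither probe shared a run of 16 bases with any other probe of the array. The position of these probes relative to exons and untranslated regions was not analysed here.

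The CD8A probe that starts at base 696 of its transcript lies at chr17:41463098-41465277, so that its 60 bases span 2180 bases of the genome. The second CD8A probe starts at base 742 of the same transcript and lies at chr17:41465264-41465323. The last 14 bases of the first probe, in capitals, are also the first 14 of the second, so that these are 2 readings of nearly the same stretch of 1 transcript and not 2 independent genes. The CD3E probe (chr5:18412091-18412150) is shown beside it as the CD3 chain that was chosen by function.
CD8A: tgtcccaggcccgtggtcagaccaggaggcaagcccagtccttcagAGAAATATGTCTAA
CD3E: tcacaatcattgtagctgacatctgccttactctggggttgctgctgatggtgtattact

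The granule proteases were compared between DLG2-deleted and wild-type tumours to see whether cytotoxic transcripts went with the deletion. Both granzymes analysed among the listed members were brighter in each deleted tumour than in any wild-type tumour, whereas the pore former PRF1 was not. GZMA codes for granzyme A, a protease of cytotoxic T and NK cell granules. Its log2 intensity was 7.97, 8.09, 8.40 and 8.12 in the deleted tumours, and 6.73, 6.70 and 6.72 in the wild-type tumours. The 4 deleted tumours lay between 7.97 and 8.40, above all wild-type tumours, which were nearly equal to each other. The means were 8.14 ± 0.18 (SD, n = 4) and 6.72 ± 0.01 (SD, n = 3), which is a log2 difference of 1.43 (SE 0.12) or 2.69-fold, in a gene picked for this direction.

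The size of the GZMA difference depended on how the background was removed. In the scanner software's own processed intensity, on a linear scale, GZMA was at 150, 140, 204 and 153 in the deleted tumours and at 20.4, 17.4 and 25.7 in the wild-type tumours. The groups thus also lay apart before any scaling between arrays. After scaling of the processed intensity to the 75th percentile of each array the log2 difference was 3.32, or 10.0-fold, and it was 3.45 after quantile normalization. The offset of 50 that is added in the main processing holds down the ratio of probes that are dim in 1 group. It also narrows the spread among dim values, such as those of GZMA in the wild-type tumours. These lay near the lower end of the scale, so the size of the fold is uncertain.

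GZMK codes for granzyme K, a further granule protease, found on many memory CD8 T cells. Its probe, found under another name, read 9.27, 8.69, 8.02 and 8.31 in the deleted tumours and 7.19, 7.25 and 7.14 in the wild-type tumours (log2 intensity). All 4 deleted tumours were above the wild-type tumours, and deleted tumour 1 was the highest. The difference was 1.38 (SE 0.28, 95% interval 0.70 to 2.06) or 2.60-fold. In limma, fitted over 32309 probes, its unadjusted p was 0.00203 and its adjusted p 0.436, so it did not pass the threshold of an unadjusted p below 0.05 with an adjusted p below 0.1. The threshold was passed by 0% of all probes, the lowest adjusted p over the whole array being 0.120.

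PRF1 codes for perforin, which granzymes need to enter a target cell. The deleted tumours read 6.80, 6.83, 6.82 and 6.72 and the wild-type tumours 6.75, 6.76 and 6.80 (log2 intensity). The groups overlapped, and all 7 tumours lay between 6.72 and 6.83. Its difference was 0.02 (SE 0.08, 95% interval -0.16 to 0.21, limma adjusted p = 0.974). The processed intensity of this probe lay between 13.1 and 30.3, so that differences in PRF1 could be seen only near the lower end of the scale.

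NKG7 codes for a membrane protein of the granules of NK and T cells. At 11.59, 9.78, 11.59 and 11.61 in the deleted tumours and 12.20, 10.42 and 11.36 in the wild-type tumours (log2 intensity), it showed no order by group. The lowest tumour of each group was number 2, and both were hybridised on the same slide. Over the 7 tumours the Pearson r of NKG7 with each other member probe was negative, from -0.73 for CD4 to -0.09 for GZMA. The difference of -0.18 (SE 0.60, 95% interval -1.60 to 1.23, limma adjusted p = 0.975) leaves room for a sizeable difference in either direction.

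**Figure D1:**
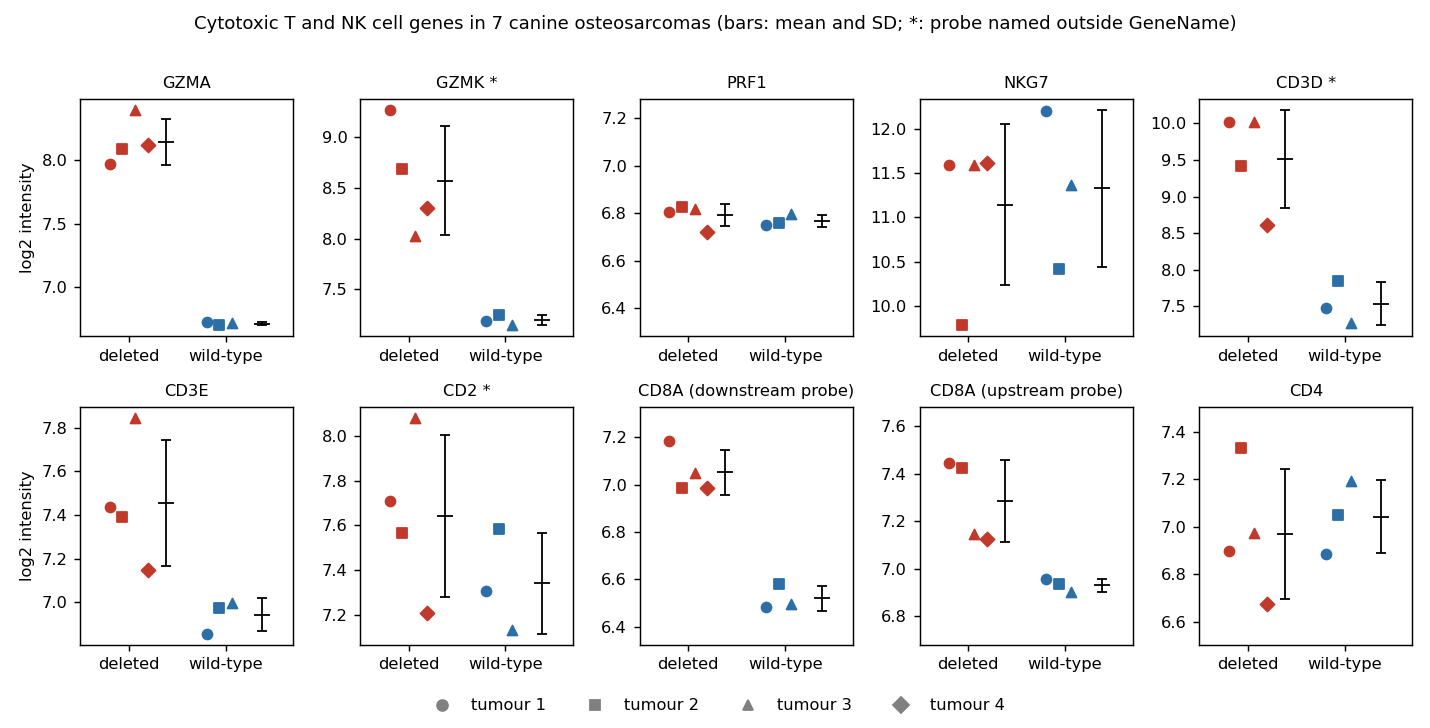
Log2 intensity (normexp-corrected, quantile-normalized) of the 10 probes for cytotoxic T and NK cell genes in each of 7 canine OS, red for the 4 deleted and blue for the 3 wild-type tumours, with a symbol for each tumour number and bars for mean and SD; panels have their own axes and an asterisk marks the 3 probes found under another name. GZMA, GZMK, CD3D, CD3E and both CD8A probes have all deleted tumours above all wild-type tumours, while PRF1, NKG7, CD2 and CD4 overlap.

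Both CD3 chains of the T cell receptor complex on the list lay apart between the groups, with the deleted tumours brighter. CD3D codes for the delta chain. Its probe, found under another name, read 10.02, 9.42, 10.02 and 8.61 in the deleted tumours and 7.48, 7.85 and 7.27 in the wild-type tumours (log2 intensity). Deleted tumour 4 was the lowest of its group and still above wild-type tumour 2, the highest of the other. The means of 9.52 ± 0.67 (SD, n = 4) and 7.53 ± 0.29 (SD, n = 3) differ by 1.98 (SE 0.37) or 3.95-fold, again in a gene picked for this direction. In processed intensity CD3D stood at 887, 401, 668 and 207 against 79.2, 114 and 77.5.

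CD3E codes for the epsilon chain and was listed by function. The log2 intensities were 7.44, 7.39, 7.84 and 7.15 in the deleted tumours and 6.86, 6.97 and 7.00 in the wild-type tumours. As for CD3D, deleted tumour 3 was at the top and deleted tumour 4 at the bottom of its group, and the groups did not overlap. The difference was 0.51 (SE 0.17, 95% interval 0.12 to 0.91) or 1.43-fold, with an unadjusted p of 0.0188 and a limma adjusted p of 0.591. CD3D and CD3E are neighbours on chromosome 5, at 18402842 and 18412091 (probe starts), and their probes correlated over the 7 tumours with a Pearson r of 0.91, a description that the gap between the groups shapes.

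CD2 codes for an adhesion receptor of T and NK cells. Its probe, found under another name, read 7.71, 7.57, 8.08 and 7.21 in the deleted tumours and 7.31, 7.58 and 7.13 in the wild-type tumours (log2 intensity). Wild-type tumour 2 reached the level of deleted tumour 2, and deleted tumour 4 was below 2 of the 3 wild-type tumours. The difference was 0.30 (SE 0.22, 95% interval -0.22 to 0.82, limma adjusted p = 0.856).

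The co-receptors parted. CD8A, the alpha chain of the co-receptor of cytotoxic T cells, had all deleted tumours above all wild-type tumours by both probes, while CD4, the co-receptor of helper T cells, overlapped. The CD8A probe shown above read 7.45, 7.43, 7.15 and 7.13 against 6.95, 6.94 and 6.90 (log2 intensity). Deleted tumours 1 and 2 were the higher pair. Its difference was 0.36 (SE 0.12, 95% interval 0.08 to 0.63) or 1.28-fold, with an unadjusted p of 0.0185 and a limma adjusted p of 0.590.

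The second CD8A probe read 7.18, 6.99, 7.05 and 6.98 in the deleted tumours and 6.48, 6.58 and 6.50 in the wild-type tumours (log2 intensity), and was not well above background in wild-type tumour 1. Deleted tumour 1 was again the highest. Here the difference was 0.53 (SE 0.09, 95% interval 0.31 to 0.75), with an unadjusted p of 0.000714 and a limma adjusted p of 0.382. On processed intensity scaled to the 75th percentile the 2 CD8A probes differed far more from each other, with 1.83-fold for the first and 6.90-fold for the second, which read between 3.25 and 8.42 in the wild-type tumours.

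CD4 read 6.90, 7.33, 6.97 and 6.68 in the deleted tumours and 6.88, 7.05 and 7.19 in the wild-type tumours (log2 intensity). Deleted tumours held both the highest and the lowest value. The processed intensity of this probe lay between 7.20 and 67.3, near the lower end of the scale. Alone among the member probes, it shared a run of 16 bases with 1 other probe of the array, not assigned to CD4. The part of this in its values was not tested. The difference was -0.07 (SE 0.17, 95% interval -0.48 to 0.33, limma adjusted p = 0.962). Its sign changed with the processing and the tumours used: it was 0.52 with normexp values scaled to the 75th percentile, a scaling that also moved the median of all probes by 0.32, and 0.10 with slide as a block.

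The members listed by function and named on the array came to 6 tested probes of 5 genes. Of these 6 probes, 3 (CD3E and both for CD8A) lay apart with the deleted tumours higher, while 3.9% of all 32309 probes did so. An unadjusted p below 0.05 with the deleted group higher was reached by the same 3 probes, against 3.1% of all probes, and 2 of the 3 read the same transcript. None passed the threshold, their limma adjusted p lying between 0.382 and 0.975. With 4 tumours against 3, an exact permutation test over the 35 splits cannot give a two-sided p below 0.0571.

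The mark of an unadjusted p below 0.05 was not kept in every alternative. CD3E lost it in 4 of 21 alternatives, among them slide as a block and age as a term. CD8A lost it in 4 of 21, among them slide as a block. For CD8A the alternatives read the first probe, except 1 that took the mean of both probes and kept the mark. In limma the unadjusted p of CD3E was 0.166 with age as a term. Every adjusted p missed the threshold. With slide as a block the groups are compared only on the slide they share, with wild-type tumour 2 alone in its group. Of the 6 tested probes 4 were higher in the deleted group, PRF1 among them with its 0.02, where 51% of all probes were. With 1 probe for each of the 5 genes listed by function, 3 were higher, against 52.8% of all 11100 genes, and the median difference was 0.02 against 0.01 over all genes. With GZMA, which was picked for its direction, the median was 0.19.

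The order of the tumours was not the same for all members. Deleted tumour 4 was the lowest deleted tumour for CD3D, CD3E, CD2, CD4, PRF1 and both CD8A probes, but not for GZMA, where deleted tumour 1 was lowest, GZMK, where deleted tumour 3 was, or NKG7, where deleted tumour 2 was. Without deleted tumour 4 the differences were 2.23 for CD3D, 0.60 for CD3E, 0.40 for the first CD8A probe, 1.41 for GZMA and 1.43 for GZMK. The wild-type tumours were the 3 lowest of the 7 for each of these 5 genes.

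The differences were also taken within the extraction sessions, as values without a test. In session 1, with deleted tumours 2, 3 and 4 against wild-type tumour 2, they were 1.50 for GZMA, 1.09 for GZMK, 1.50 for CD3D, 0.49 for CD3E and 0.30 for the first CD8A probe. In session 2, with deleted tumour 1 against wild-type tumours 1 and 3, they were 1.25, 2.11, 2.64, 0.51 and 0.52 in the same order. On the slide with deleted tumours 2 and 3 and wild-type tumour 2 they were 1.54, 1.10, 1.87, 0.65 and 0.35. Since all deleted tumours were above all wild-type tumours for these 5 genes, the sign of these values was given beforehand and only their size is information, with a single tumour in 1 group each time. NKG7 was at 0.57 in session 1 and at -0.19 in session 2. With wild-type tumours 1 and 2 averaged to 1 tumour, the differences were 1.43 for GZMA, 1.39 for GZMK, 2.05 for CD3D, 0.50 for CD3E and 0.36 for CD8A.

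**Figure D2:**
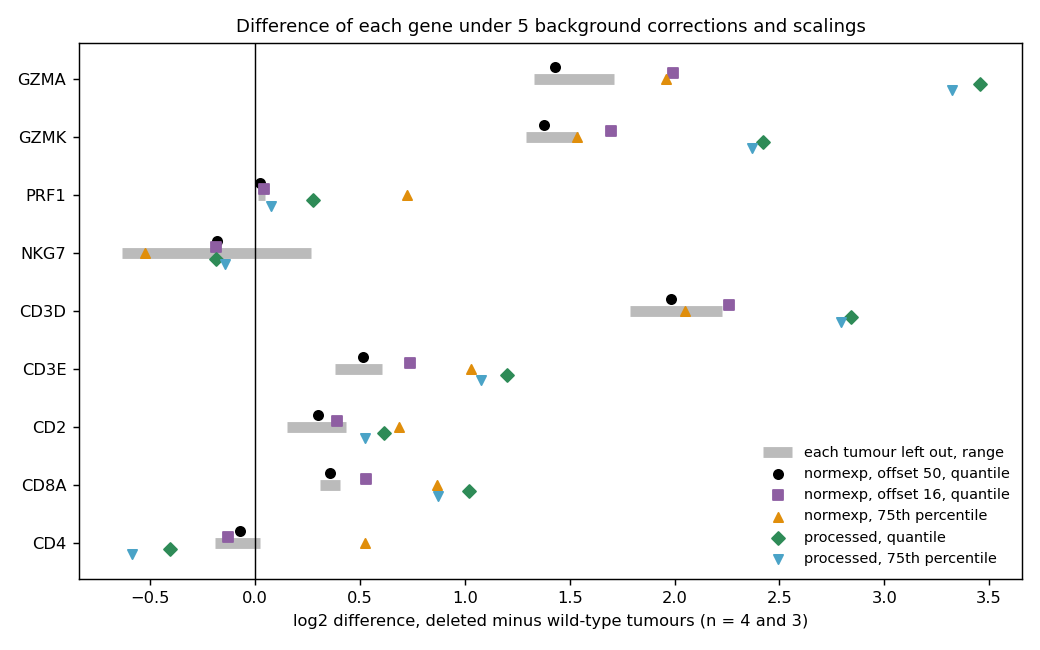
Log2 difference (deleted minus wild-type tumours) of each of 9 genes under 5 combinations of background correction and scaling (symbols) and the range when each of the 7 tumours is left out in turn (grey bar); CD8A is the probe shown above. GZMA, GZMK, CD3D, CD3E, CD2 and CD8A stay right of 0 under each of these, GZMA moving from 1.43 to 3.45, while NKG7 and CD4 cross 0. PRF1 reaches 0.72 only with normexp values scaled to the 75th percentile, which moves the median of all probes by 0.32.

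Further genes of the same cells were taken from 8 lists of T and NK cell biology, 115 genes in all, of which 72 had a value. In the deleted group 52 of the 72 (72.2%) were higher, against 52.8% of all 11100 genes. Their median difference was 0.11. At an unadjusted p below 0.05, 13 (18.1%) were higher and 2 were lower, where 3.64% of all genes were higher and 3.95% lower. The groups lay apart with the deleted tumours higher for 14 genes (19.4%), against 4.14% of all genes. Of the 72 genes 55 were well above background in all 7 tumours, among them 9 of the 13 and 10 of the 14. The other 4 of the 14, CTLA4, SH2D1A and PRKCQ among them, were not above background in every wild-type tumour, so that the filter on dim probes let them in through the deleted group. None passed the threshold, and the lowest limma adjusted p among them was 0.382.

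Of the T cell receptor complex and T cell surface proteins, all 7 genes with a value were higher in the deleted group, with a median of 0.13. CD3G, the gamma chain of CD3, read 8.34, 7.78, 8.30 and 7.76 in the deleted tumours and 7.07, 7.14 and 6.67 in the wild-type tumours (log2 intensity). As with CD3D and CD3E, the groups lay apart, and deleted tumours 1 and 3 were the highest. Its difference was 1.08 (SE 0.21, limma adjusted p = 0.434). CD27, a co-stimulatory receptor, differed by 0.25 with groups that lay apart, and TRAT1, an adaptor bound to the receptor, by 0.22 with groups that overlapped.

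Downstream of the receptor the list was mixed, with 7 of 13 signalling genes higher and a median of 0.05. LCK, the kinase that phosphorylates the CD3 chains, read 9.01, 8.98, 8.84 and 8.15 in deleted tumours and 8.02, 8.02 and 7.82 in wild-type tumours (log2 intensity). Deleted tumour 4 was the lowest of its group and just above the wild-type tumours. The groups differed by 0.79 (SE 0.22, limma adjusted p = 0.541). PRKCQ, a protein kinase C of T cells, differed by 0.32, and RASGRP1, which activates Ras in T cells, by -0.34, both with groups that lay apart and with limma adjusted p of 0.586 and 0.564. PRKCQ was well above background in 1 of the 3 wild-type tumours.

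Of the genes for granule release and killing, 6 of 12 were higher, with a median of 0.03. GZMH, which codes for granzyme H, read 8.03, 7.79, 7.37 and 7.51 in the deleted tumours and 7.01, 6.96 and 6.93 in the wild-type tumours (log2 intensity). Deleted tumours 1 and 2 were the highest, as for GZMK. Its difference was 0.71 (SE 0.17, limma adjusted p = 0.494). CTSW, a cathepsin of cytotoxic lymphocytes, differed by 0.63 (SE 0.22) with groups that lay apart, and TNFSF10, the death ligand TRAIL, by 1.24 (SE 0.68) with groups that overlapped. The effector cytokine IFNG, named after its values were seen, differed by -0.07 (SE 0.10). Its probe was well above background in only 1 of the 4 deleted and 2 of the 3 wild-type tumours, which limits what could be seen.

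Among NK cell receptors and adaptors 5 of 6 genes were higher, with a median of 0.21. SH2D1A, an adaptor of T and NK cells, differed by 0.74 (SE 0.21) and KLRD1, the CD94 chain of NK receptors, by 0.41 (SE 0.14), with limma adjusted p of 0.552 and 0.612. KLRD1 was well above background in 1 of the 3 wild-type tumours, and SH2D1A in 2. CD160 differed by 0.19 with groups that lay apart. NCR1, which is close to specific for NK cells and was named after its values were seen, differed by -0.07 (SE 0.10). It was well above background in only 1 of the 4 deleted and 2 of the 3 wild-type tumours, so a difference could hardly be seen.

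Of the transcription factors of these cells 4 of 7 were higher, with a median of 0.01. TOX, a factor of T cell development and exhaustion, read 7.01, 6.81, 6.82 and 6.53 in the deleted tumours and 7.59, 7.31 and 7.18 in the wild-type tumours (log2 intensity). It ran opposite to the CD3 genes, with every deleted tumour below every wild-type tumour. The groups differed by -0.57 (SE 0.15, limma adjusted p = 0.520). LEF1, a Wnt pathway factor, differed by -0.82 (SE 0.54) and PRDM1 by 0.37 (SE 0.20), both with overlapping groups.

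Of the inhibitory checkpoint genes 4 of 6 were higher, with a median of 0.16. CD274, the ligand PD-L1, differed by 0.89 (SE 0.20) and CTLA4 by 0.89 (SE 0.32), both with groups that lay apart and with limma adjusted p of 0.489 and 0.634. CTLA4 was highest in deleted tumours 1 and 3, at 7.98 and 8.14, as CD3D and CD3G were. PDCD1, the receptor PD-1, differed by 0.20 (SE 0.11). Of the cytokine and homing receptors 11 of 13 were higher, with a median of 0.07 and none with groups that lay apart; CXCR4 differed by 0.58 (SE 0.43), IL2RA by 0.14 and IL2RB by 0.09.

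The chemokines that draw T and NK cells had the largest median of the 8 lists, 0.81, with all 8 higher in the deleted group. CCL5, the chemokine RANTES, which T and NK cells also make, read 11.37, 10.23, 11.14 and 10.10 in the deleted tumours and 8.93, 9.24 and 8.67 in the wild-type tumours (log2 intensity). Deleted tumours 1 and 3 were again the top pair. The difference was 1.76 (SE 0.35, limma adjusted p = 0.434). CCL4 differed by 1.40 (SE 0.22, limma adjusted p = 0.382), likewise with groups that lay apart. CXCL10, an interferon-induced ligand of CXCR3, differed by 1.68 (SE 0.66), with deleted tumour 4 at 8.00 below wild-type tumour 2 at 8.12.

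**Figure D3:**
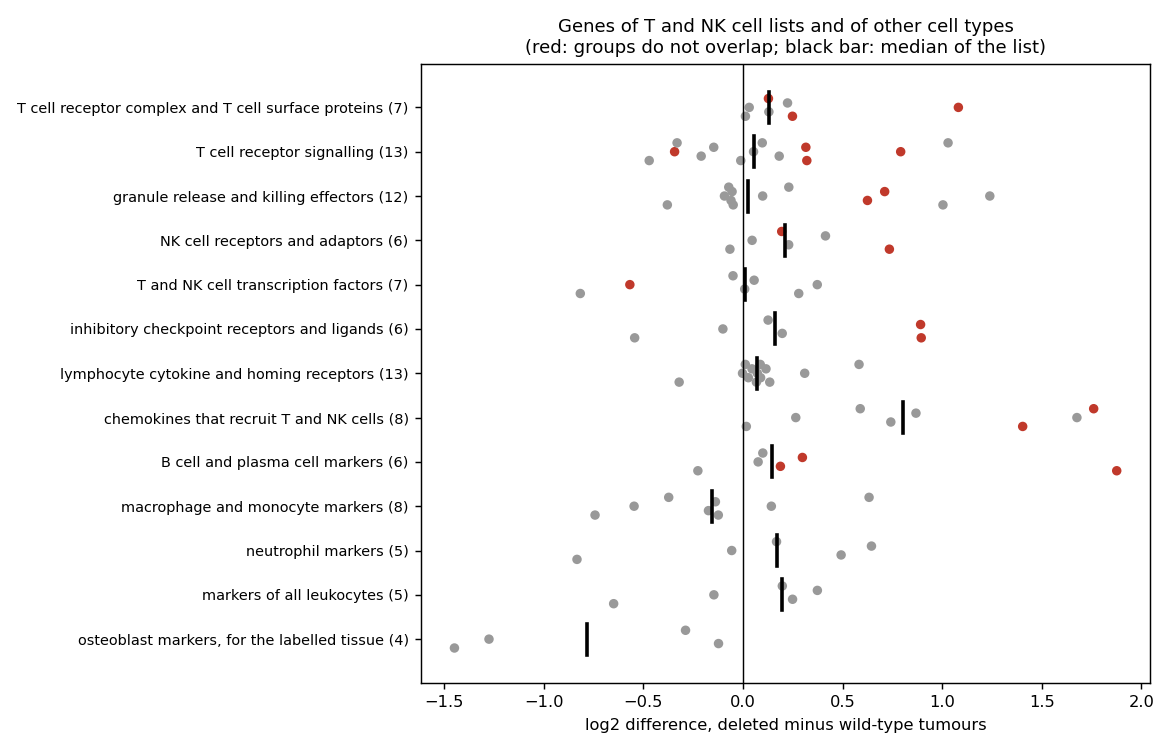
Log2 difference (deleted minus wild-type tumours, x axis) of each gene with a value in 8 T and NK cell lists and 5 marker lists of other cells, with the number of genes in parentheses; each point is a gene, red where the groups do not overlap, and the black bar is the median. The chemokine list lies furthest to the right with a median of 0.81 and the osteoblast list furthest to the left with a median of -0.78; no gene shown passed the threshold.

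Of the B cell and plasma cell markers 5 of 6 were higher (median 0.14), 3 of them with groups that lay apart. JCHAIN, the joining chain of antibodies, read 13.75, 12.33, 11.07 and 12.25 in the deleted tumours and 9.71, 10.75 and 10.96 in the wild-type tumours, a difference of 1.88 (SE 0.63). The summed linear level of this list ran from 2805 to 14380 in deleted and from 1467 to 2641 in wild-type tumours, which reflects JCHAIN most. MS4A1, which codes for CD20, was well above background in 3 deleted tumours and in no wild-type tumour, and POU2AF1, named here after its values were seen, in 3 and in 1. These are 2 of the 3 markers that lay apart, and both came through the filter on dim probes by the group in which they were higher. The part of B and plasma cells in the T cell results was not tested.

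Markers carried by all leukocytes did not separate the groups. Of these, 3 of 5 were higher (median 0.20), and their summed level ran from 1754 to 9791 in deleted and from 2882 to 6033 in wild-type tumours. The differences were -0.65 (SE 0.72) for LAPTM5, 0.25 (SE 0.38) for CD53, 0.37 (SE 0.59) for ITGB2, 0.20 (SE 0.61) for CD48 and -0.15 (SE 0.50) for PTPRC, the leukocyte antigen CD45. The median of these 5 markers, as the deviation from the mean of the 7 tumours, was -0.46, 0.14, 1.44 and -0.92 in the deleted tumours and -0.42, 0.61 and -0.31 in the wild-type tumours. Deleted tumour 3 was thus the highest and deleted tumour 4 the lowest of the 7.

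Of the macrophage and monocyte markers 2 of 8 were higher (median -0.16, summed levels 3346 to 20052 in deleted and 6422 to 14568 in wild-type tumours), with MRC1 at 0.63, CD68 at -0.74 and CSF1R at -0.55. Of the neutrophil markers 3 of 5 were higher (median 0.17, summed levels 905 to 8013 and 881 to 3336), with MPO at -0.83, CSF3R at 0.17 and ELANE at -0.06. The osteoblast markers, which stand for the labelled tissue, were present in each tumour, with ALPL between 12.54 and 16.55 and BGLAP between 9.75 and 14.19. All 4 of them were lower in the deleted group (median -0.78, summed levels 24366 to 165121 and 75511 to 144068) with overlapping groups, among them BGLAP at -1.45 (SE 0.94), ALPL at -1.27 (SE 1.03) and RUNX2 at -0.29. None of the markers in these 5 lists passed the threshold, and whether their levels play a part in the T cell values was not tested.

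**Figure D4:**
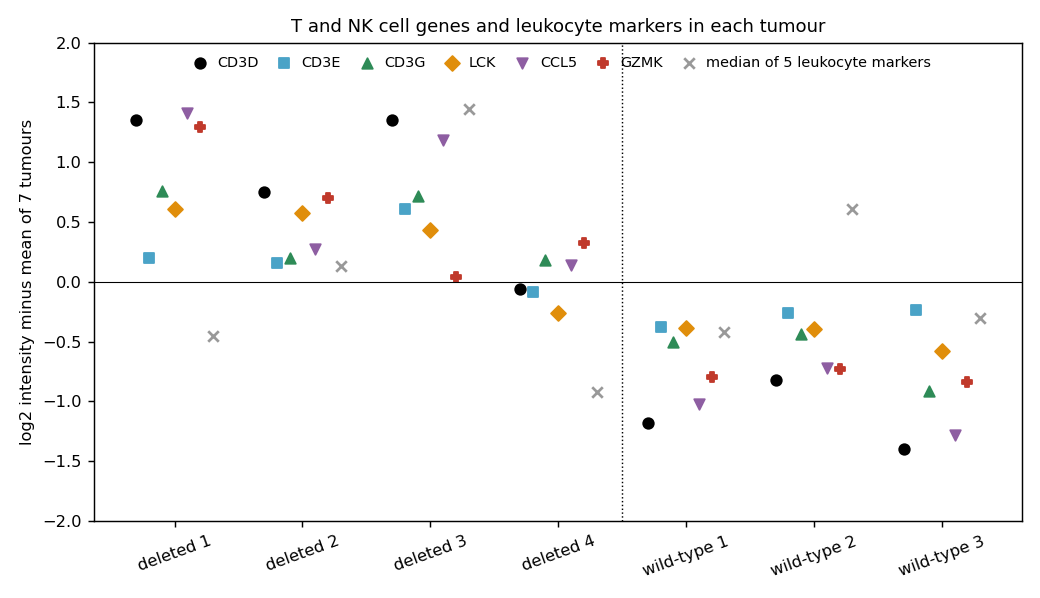
Log2 intensity minus the mean of the 7 tumours (y axis) for 6 genes shown because their groups lay apart (CD3D, CD3E, CD3G, LCK, CCL5 and GZMK) and, as grey crosses, the median over all 5 leukocyte markers with a value, in each tumour (x axis), with a dotted line between the deleted and wild-type tumours. CD3D, CD3G and CCL5 are highest in deleted tumours 1 and 3, while the leukocyte median is highest in deleted tumour 3 (1.44) and lowest in deleted tumour 4 (-0.92).

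The genes whose pattern was most like the average of the 6 members named on the array were sought over the 7 tumours by Pearson r with the members' mean deviation. This average had all deleted tumours above all wild-type tumours, and it includes GZMA, which was picked for that direction and had the highest r with it (0.86), so the likeness is a description. They were MYADM (r = 0.98), PYGM (0.97), SVEP1 (0.95), IRF2BP1 (0.93), PPP1R3B (0.93), SMARCAL1 (0.93), WDFY2 (0.92) and OPA3 (0.92). None of the 8 is in the T and NK cell lists. The average leans on the members that vary most, NKG7 (SD 0.83 over the 7 tumours) and GZMA (SD 0.77). When each member was scaled to the same SD first, a choice made after seeing the data, the 8 were B3GNT9, WFDC2, HIVEP2, MAP2K3, BEND3, PDCD1, DDX56 and GSN, and the checkpoint receptor PDCD1 (r = 0.97) was then the one from the T and NK cell lists. Without GZMA, a choice likewise made after seeing the data, the average of the other 5 members no longer separated the groups, and 2 of the 8 genes most like it (OPA3 and SVEP1) were among the 8 named first. An r above 0.8 was then reached by 56 of 11092 genes and by 0 of the 72 wider T and NK cell genes, against 111 and 6 with GZMA in the average.

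Whether the difference of a member was not the same in dogs labelled MC and FS was tested as an interaction in limma. None of 32309 probes passed the threshold. For the members listed by function the interaction lay between -0.30 for CD4 and 0.84 for NKG7, with adjusted p of 0.666 or higher, and these values rest on 1 wild-type tumour labelled MC.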

How the data were processed

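RNA of 7 canine OS was hybridised by the authors to 1-colour (Cy3) Agilent Canine V2 arrays. Per the file headers, the deposited values are spot, local background and processed intensity on a linear scale, as written by Agilent Feature Extraction 10.7.3.1. The authors name RMA normalization and a batch correction. Here the mean intensity was background-corrected (normexp, offset 50), quantile-normalized and put on the log2 scale with limma 3.58.1 in R 4.3.3. Of 45220 spots, 43803 were no controls. Outlier values (144) were left out, and spots of a probe were averaged. Probes well above background on at least 3 arrays (32309 of 43603) were tested with lmFit and eBayes, two-sided, with Benjamini-Hochberg adjustment over all of them. A probe counted as past the threshold at an unadjusted p below 0.05 and an adjusted p below 0.1, as the methods name. This code was tested on simulated data.

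Gene symbols were those of the files, plus 1845 probes named through RefSeq assembly UU_Cfam_GSD_1.0, so that 20614 probes had one. A gene's brightest probe stood for it. Named genes were all members, the 3 of each list with the lowest unadjusted p, and the 8 most like the members; some genes counted in the lists are not reported here by themselves. Members and lists were chosen with earlier results of these data known. Groups came from the genotype labels, and tumour numbers pair nothing. The p-values measure the spread between 7 tumours with 1 array each, whose number limits the precision. Alternatives were other background corrections, scalings, filters and tests, slide, session, sex label and age as terms, other choices of probe, and leaving out each tumour.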

Additional observations from a re-analysis of the deposited data

Results flagged for a closer look

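NKG7 in deleted tumour 2, at 9.78 on the log2 scale, stood far below the other deleted tumours, at 11.59, 11.59 and 11.61. Its gap to the nearest of them took up 0.988 of the range of the 4 deleted tumours, more than Dixon's limit for 4 values. It was the only one of 23 groups of 4 tested that was past this limit, and chance puts about 1 in 20 past it. Wild-type tumour 2 was the lowest of its own group for NKG7, at 10.42, and shared the slide, as did deleted tumour 3, which read 11.59. The part of the slide was not tested.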

How the results depend on the processing

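Under every alternative run for it, 0 members listed by function (22 alternatives), 0 of the wider T and NK cell genes (21) and 0 interactions with the sex label (15) passed the threshold. The interaction was not run for the t-test, for session, slide, sex label or age as a term, without wild-type tumour 3 or for other choices of members. The median difference of the members (0.19) was 0.47 and 0.65 for processed intensity with 75th percentile and quantile scaling. It was 0.79 for normexp with 75th percentile scaling, which moved the median of all probes by 0.32. With session as a term it was 0.31, and with slide as a block 0.31. It was 0.36 with the probes under another name and 0.025 with the members listed by function only. With each tumour left out it lay between 0.18 and 0.30. GZMA lay between 1.33 and 3.45, CD3D between 1.79 and 2.84, GZMK between 1.10 and 2.42, CD3E between 0.36 and 1.20, CD8A between 0.31 and 1.02, and all were above 0 in all 21 alternatives. CD4 (-0.07) changed sign to 0.52 with normexp and 75th percentile scaling, 0.10 with slide as a block, 0.024 without deleted tumour 4 and 0.0039 without wild-type tumour 3 (between -0.19 and 0.024 with each tumour left out), and NKG7 (-0.18) to 0.21 with session as a term, 0.26 with slide as a block, 0.27 without deleted tumour 2 and 0.25 without wild-type tumour 1 (between -0.64 and 0.27). Over all probes, the 0 past the threshold became 10 and 4 with the 2 processed intensities, 23 with normexp and 75th percentile scaling, 1 with offset 16, 4 with trend and robust options and 39 without wild-type tumour 3. Of the wider genes, 13 were higher at an unadjusted p below 0.05 in limma. In the alternatives other than slide as a block this ran from 8 without wild-type tumour 1 or 3 to 20 without deleted tumour 4. It was 9 with age as a term. With slide as a block fewer were higher at this mark than in any other alternative. Wild-type tumour 2 is then alone in its group, so only the median difference of the wider genes, 0.18, is given. The cause was not tested. Slide as a block compared the groups only on the slide of deleted tumours 2 and 3 and wild-type tumour 2. No paired analysis was possible because tumour numbers only name the tumours. PRF1, CD4, the second CD8A probe and, in the wild-type tumours, GZMA were close to background, so that their values limit what could be seen.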
